A study of Homo sapiens with 12 samples.

Results

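Untreated K562 cells lacking HRG1 were compared with untreated unedited cells (WT). K562 is a line derived from a chronic myeloid leukaemia that grows as erythroleukaemia cells, makes embryonic and fetal globin, and can move towards the red cell or the platelet lineage. The comparison uses 6 of the 12 libraries of the series, chosen by their labels: HRG1-KO control replicates 1 to 3, called KO1, KO2 and KO3 here, against WT control replicates 1 to 3, called WT1, WT2 and WT3. Both groups carry the K562 background, were grown in RPMI with serum and non-essential amino acids, and received no butyrate. The other 6 libraries, 3 of each genotype given 0.75 mM sodium butyrate, share the fit and serve as a second look at the genotype. The labels give neither the way the gene was disrupted nor the number of clones, so a population grown from a single cell is possible for either genotype. They also do not say that replicates were separate cultures, so p-values measure the spread between these libraries, which may be technical. The comparison is between 2 populations, and what follows from the loss of HRG1 cannot be told apart from other differences between them.

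HRG1, encoded by SLC48A1, carries heme out of endosomes and lysosomes into the cytosol, and in macrophages it recovers heme from engulfed red cells. In erythroid cells heme is inserted into globin chains and also acts as a signal for globin synthesis, while GATA1, KLF1 and TAL1 drive the red cell genes. Long-cultured leukaemia lines carry abnormal chromosome sets that differ between subclones, and genes on an extra or missing chromosome copy move together. Some promoters in such lines are silenced by DNA methylation, a state that a clone passes on to its descendants. Neither chromosome copies nor DNA methylation were measured here.

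Totals were 19963594 to 30348538 counts per untreated library, and the ribosomal RNA gene RNA28SN5 took 0.699% to 4.69% of them, with the 2 genotypes overlapping. Values below are CPM (counts scaled to a common library size after TMM normalization), and 3 counts, the limit of detection used, equal 0.100 to 0.162 CPM. SLC48A1 was at 2.94, 8.32 and 6.55 CPM in KO1, KO2 and KO3 and at 73.5, 82.2 and 65.4 CPM in WT1, WT2 and WT3. The groups did not overlap, and the KO mean was 8.06% of WT (log2 difference -3.63, SE 0.35, edgeR adjusted p 1.82e-05; 2-sided exact permutation p 0.1, the smallest that 3 against 3 allows). Both genotypes had 0 counts of CDKN2A, CDKN2B and MTAP, neighbours on chromosome 9 that are known to be deleted in K562, and both carried BCR and ABL1 reads, the partners of its fusion gene (these 5 genes were chosen after their values were seen). BCR was at 108, 134 and 116 CPM in KO and 109.8, 89.2 and 134 CPM in WT, and ABL1 at 199, 281 and 225 and 374, 236 and 310.3 CPM.

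Of 15805 genes tested, 3574 (22.6%) differed between genotypes. A gene is said here to be called, to rise or to fall where its Benjamini-Hochberg adjusted p in edgeR was below 0.05. In KO, 1856 (11.7%) were higher and 1718 (10.9%) lower, and 2694 of the called genes differed by more than 2-fold. Shares of gene lists below are to be read against 22.6% called, 11.7% higher and 10.9% lower. The 6 libraries did not overlap for 6691 genes (42.3%). With the replicate number as a block, 5217 of the 15805 genes were called, and list counts under the block below are to be read against this larger number. The first principal component of the 6 libraries carried 73.6% of the variance and separated the genotypes. In the butyrate-treated libraries, which come from the same 2 populations and share the estimate of the spread, 3009 genes (19.0%) differed by genotype. With the 6 untreated libraries alone in the fit, 4093 genes were called in the untreated contrast, and 5039 without the 2 treated libraries numbered 1. In the main fit, the 3009 treated calls shared 2374 genes with the 3574 untreated calls. This was 66.4% of the untreated and 78.9% of the treated list, and all 2374 had the same direction. Of all the untreated calls, 3540 (99.0%) had the same sign in treated cells. A difference of the genotype effect between treated and untreated cells was called for 0 genes by edgeR.

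The widest differences were genes read in 1 genotype and at or near 0 counts in the other. For 3.56% of the tested genes all 3 KO libraries were at 3 counts or fewer while at least 1 WT library was above, and for 2.75% the reverse held. Both genotypes were at this limit for 80 more genes. With at least 50 counts required in each library of the other genotype, 126 genes were at the limit in KO and 107 in WT. In treated cells, 122 of the 126 were again called lower in KO and all 107 again called higher. These are bulk libraries, so fewer cells of a type and less RNA per cell cannot be told apart for any gene below. The 12 rises and 12 falls that were largest all had 0 counts in every library of the other genotype, passed in all 6 fits that left out 1 untreated library, and were called in the same direction in treated cells.

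COL2A1, the chain of the type II collagen of cartilage, was at 261, 303 and 330.5 CPM in KO1, KO2 and KO3 and had no count in WT, so it was at least 2221-fold higher in KO against the limit of 3 counts per library. COL2A1 lies close to the disrupted gene, at 47972967 to 48006212 on chromosome 12, with SLC48A1 at 47753934 to 47782751. Whether this position bears on the rise was not tested. CLCA1, a secreted modulator of calcium-activated chloride currents, reached 42.0, 199 and 117 CPM (at least 888-fold). KO1 was the lowest of the 3 for CLCA1, yet far above the empty WT libraries. MLLT3, a chromatin reader of the super elongation complex that sustains blood stem cells, was at 55.2, 38.5 and 42.4 CPM (at least 338-fold). SOX1, a transcription factor of neural progenitors, was at 28.4, 47.8 and 41.5 CPM (at least 292-fold). KIRREL1, an adhesion protein related to nephrin, was at 51.3, 71.7 and 50.4 CPM (at least 431-fold). The remaining 7 rises were LOC100294145, HLA-C, ZNF711, FRAS1 (a basement membrane protein), SYCE1 (a part of the synaptonemal complex of meiosis), LINC00674 and GCA, a calcium-binding protein of granulocytes, with bounds from 239-fold for GCA to 481-fold for LOC100294145. Among abundant genes with a few WT counts, CHI3L2, a chitinase-like secreted protein, was at 350.3, 313 and 371 CPM in KO and 0, 0.0928 and 0.202 CPM in WT. MS4A3, a membrane protein of granulocyte precursors, was at 377, 469 and 736 against 1.68, 3.20 and 2.25 CPM. TRIM71, an RNA-binding protein of early embryos, was at 102, 157 and 113 against 0, 0 and 0.302 CPM.

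On the opposite side, ALDH1A2, the enzyme that makes retinoic acid from retinaldehyde, was at 221, 244 and 157 CPM in WT1, WT2 and WT3 and had no count in KO, at least 1539.6-fold lower. AK3, a nucleotide kinase of the mitochondrial matrix, was at 65.2, 81.5 and 72.6 CPM in WT (at least 544-fold lower in KO). SYK, a kinase downstream of immune receptors, was at 41.4, 54.9 and 42.8 CPM (at least 345-fold lower). Its WT libraries were close together and none of its reads appeared in KO. KRT19, an epithelial keratin that K562 is known to make, was at 94.6, 79.7 and 114 CPM (at least 715-fold lower). A further 7 falls were CAV2, MBOAT2, ANK3, FAT1, RNF182, SLCO2B1 and SOSTDC1, with bounds from 267-fold for SOSTDC1 to 588-fold for CAV2. SRGN, the proteoglycan core of secretory granules in blood cells, fell from 126, 127 and 169.9 CPM in WT to 0, 0 and 0.167 CPM in KO (log2 difference -10.87, SE 0.55, edgeR adjusted p 3.57e-07). NMU, a neuropeptide made by early erythroid cells, fell from 293, 239 and 213 to 0.160, 0.523 and 0.836 CPM. PTPRC, which encodes the pan-leukocyte antigen CD45 and was picked after its values were seen, was at 66.8, 92.6 and 70.7 CPM in WT and 0.588, 0.666 and 0.468 CPM in KO (log2 difference -7.06, edgeR adjusted p 1.09e-04).

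**Figure D1:**
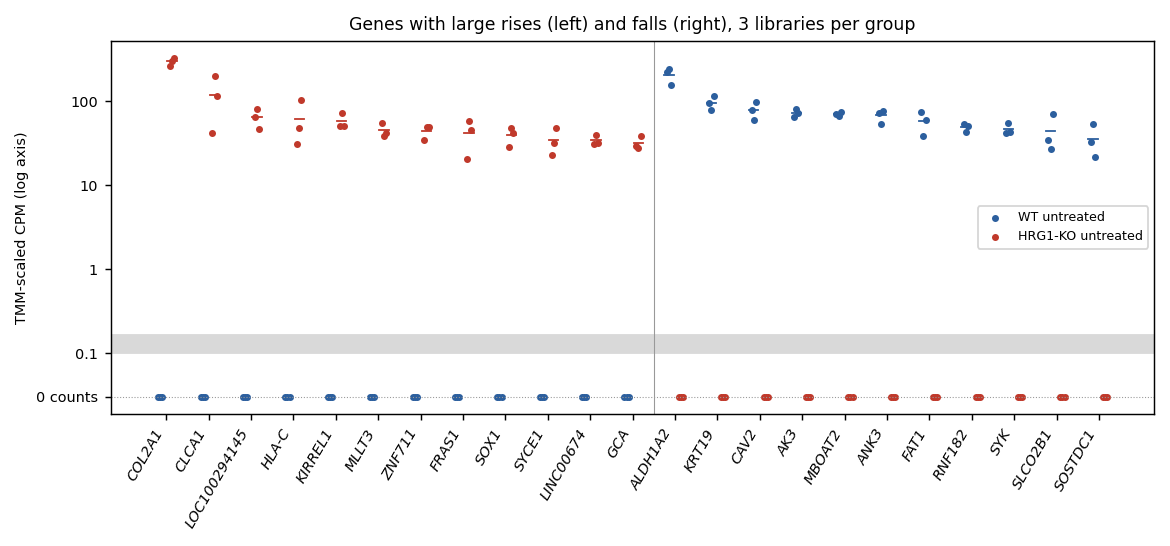
TMM-scaled CPM on a log axis for the 12 largest rises (left) and 11 of the 12 largest falls (right), with a point per untreated library and a bar at the group mean, blue for WT and red for HRG1-KO. The grey band is the range of 3 counts, 0.100 to 0.162 CPM, and every point of the silent genotype lies on the line of 0 counts, while the lowest point of the other genotype is 20.6 CPM.

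Promoters of 4 of these genes are shown as examples. All 24 of the largest rises and falls were read in 1 population and empty in the other, and the remaining promoters are not shown. No rule set in advance picked these 4, and CG counts of the remaining promoters are not given. Whether the 24 genes as a group have CG-rich promoters was not tested. Each sequence is the 250 bases before the outermost RefSeq start (build GRCh38.p14, strand of the gene, 5′ to 3′). CG dinucleotides, the sites at which DNA methylation can occur, are in capitals.
ALDH1A2, minus strand: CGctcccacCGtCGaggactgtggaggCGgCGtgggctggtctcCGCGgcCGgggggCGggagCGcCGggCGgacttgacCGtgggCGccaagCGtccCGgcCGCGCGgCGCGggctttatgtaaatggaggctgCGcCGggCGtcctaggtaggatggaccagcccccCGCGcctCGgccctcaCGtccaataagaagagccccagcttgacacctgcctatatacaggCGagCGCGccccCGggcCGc
CAV2, plus strand: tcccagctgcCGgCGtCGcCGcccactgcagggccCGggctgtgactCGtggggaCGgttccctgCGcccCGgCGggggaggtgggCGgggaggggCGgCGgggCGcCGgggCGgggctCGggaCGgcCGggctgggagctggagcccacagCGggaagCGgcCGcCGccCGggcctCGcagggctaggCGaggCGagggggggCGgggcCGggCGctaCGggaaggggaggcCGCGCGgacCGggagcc
MLLT3, minus strand: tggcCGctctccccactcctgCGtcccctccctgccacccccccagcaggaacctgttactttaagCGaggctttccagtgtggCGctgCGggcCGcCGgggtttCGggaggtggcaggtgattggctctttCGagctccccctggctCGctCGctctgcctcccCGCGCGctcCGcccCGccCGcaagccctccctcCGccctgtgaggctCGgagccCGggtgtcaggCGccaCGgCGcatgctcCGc
SOX1, plus strand: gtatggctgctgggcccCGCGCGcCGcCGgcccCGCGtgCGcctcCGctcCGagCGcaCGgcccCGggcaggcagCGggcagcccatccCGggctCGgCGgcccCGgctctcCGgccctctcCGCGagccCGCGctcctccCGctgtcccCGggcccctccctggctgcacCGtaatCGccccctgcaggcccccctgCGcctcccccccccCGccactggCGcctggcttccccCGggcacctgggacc
The windows are chr15:58065712-58065961, chr7:116499488-116499737, chr9:20622500-20622749 and chr13:112066899-112067148. RefSeq lists 2 starts for ALDH1A2 and for CAV2. ALDH1A2 and CAV2, empty in KO, hold 33 and 35 CG dinucleotides, and MLLT3 and SOX1, empty in WT, hold 24 and 31. Across 35116 RefSeq windows of the same length the median was 11, 93.9% held at least 1 CG, and 76.3% (MLLT3) to 94.2% (CAV2) held fewer than these. The letters describe the reference genome and say nothing of the methylation state, or of missing DNA, in either population.

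Chromosomes were shifted between the populations, as a whole or in part, which touches every gene group below. The median log2 difference over tested genes was -0.78 on chromosome 7, with 281 of 756 genes lower and 31 higher, and 0.93 on chromosome 13, with 130 of 272 higher and 13 lower. It was 0.63 on chromosome 14 (144 of 480 higher, 18 lower), 0.45 on chromosome 3 (200 of 844 higher, 40 lower) and -0.52 on chromosome 18 (60 of 193 lower, 19 higher). The median over all genes was 0.02. All 13 windows of 10 Mb on chromosome 7 had a median below 0, all 7 on chromosome 13 and all 8 on chromosome 14 were above 0, and all 6 on chromosome 18 were below. On chromosome 3, 12 of 14 windows were above 0 and 2 below, from -0.19 to 0.93. Window medians ran from -1.08 to -0.03 on chromosome 18 and from -1.15 to 0.43 on X. For chromosome 7 the library medians of log2(CPM + 0.5) relative to WT were -0.75, -0.73 and -0.77 in KO1, KO2 and KO3, and for chromosome 13 they were 0.93, 0.97 and 0.92. WT library medians lay between -0.08 and 0.05 on every chromosome, partly because values were taken relative to the WT mean. The groups did not overlap on chromosomes 3, 7, 13, 14 and 18 (2-sided exact permutation p 0.1 each). The same held on chromosomes 1, 2, 4, 5, 6, 8, 11, 15, 20, 21, 22 and X, so it was not particular to the 5. Among those, the median log2 difference was 0.10 on chromosome 1 and -0.08 on chromosome 8. Treated cells gave medians of -0.86, 0.82, 0.56, 0.45 and -0.65 for chromosomes 7, 13, 14, 3 and 18. Counting also chromosomes 15, 21, 22 and X, 9 chromosomes lay more than 0.25 from the median of all genes. On them 31.9% of 4181 tested genes were called, and on the other chromosomes 19.3%, where 1167 genes rose and 1073 fell. Parts of those other chromosomes were shifted too. Window medians ran from -0.29 to 0.87 on chromosome 1, -0.50 to 0.82 on 2, -0.85 to 0.50 on 9 and -0.75 to 0.36 on 11. They ran only from -0.14 to 0.15 on chromosome 17. Leaving out the 9 chromosomes therefore does not remove every shift of a region. Karyotype and the HRG1 genotype cannot be told apart by these libraries.

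**Figure D2:**
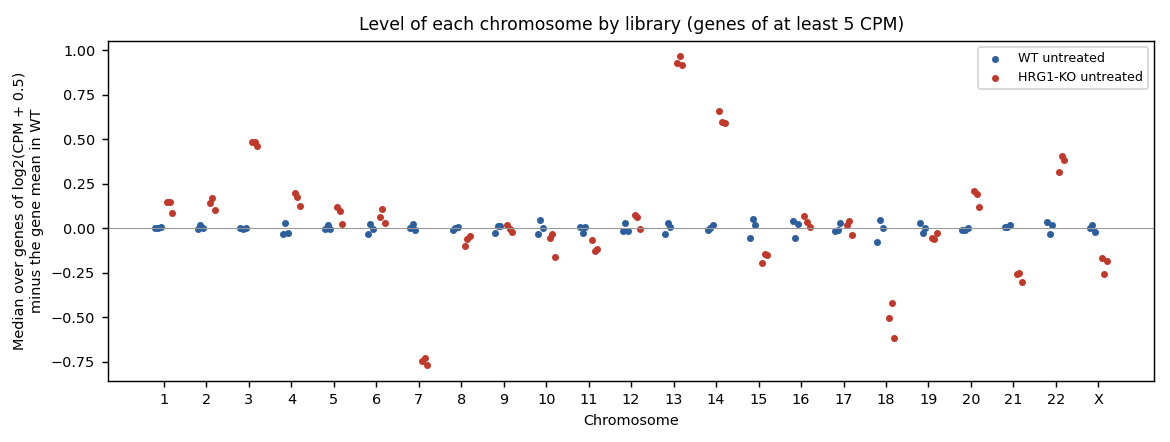
Median over genes of at least 5 CPM of log2(CPM + 0.5) minus the gene's WT mean, by chromosome, with a point per untreated library (blue WT, red HRG1-KO). The 3 KO points lie together near -0.75 on chromosome 7 and near 0.93 on chromosome 13, while all WT points stay near 0.

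Red cell transcription factors were called about as often as all genes. Of 19 tested, 1 rose and 3 fell (21.1% called, against 22.6% of all tested genes; median log2 difference -0.47). GATA1 was at 179.5, 175 and 177 CPM in KO and 348, 295 and 263 CPM in WT. The groups did not overlap, yet the difference of -0.77 (SE 0.30) had an edgeR adjusted p of 0.0880, and of 0.0199 with the replicate block. KLF1, the activator of adult globin and many red cell genes, was at 93.4, 49.7 and 91.8 against 203, 106 and 184 CPM (edgeR adjusted p 0.228, 0.0449 with the block). TAL1, GATA2 and MYB did not pass (edgeR adjusted p 0.959, 0.295 and 0.594), and neither did RUNX1 (adjusted p 0.176, 0.0416 with the block). With the block 3 of the list rose and 6 fell. LDB1, the bridge that loops GATA1-TAL1 complexes to the globin genes, fell from 317, 241 and 290.0 to 149, 144 and 165 CPM (log2 difference -0.89, edgeR adjusted p 0.00404). NFE2, a globin enhancer factor, fell by 1.14 on the log2 scale (edgeR adjusted p 0.0125), but not without 1 library (0.0544 without WT1). SOX6, a repressor of embryonic globin, was at 0, 0.761 and 0.134 against 5.79, 5.75 and 5.95 CPM and fell (edgeR adjusted p 0.00328). FOXO3, a stress factor of maturing red cells, rose by 0.76 (edgeR adjusted p 0.0250), with the call lost in 4 fits (0.144 without KO2, 0.0712 without WT1, 0.0649 without WT2 and 0.0839 without WT3).

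All 5 called globin genes were lower in KO, of 9 tested in a list with the globin chaperone AHSP (55.6% called against 22.6% of all tested genes, median -1.92). HBE1, the embryonic beta-like chain, was at 5647, 2272 and 5119 CPM in WT1, WT2 and WT3 and 26.3, 17.9 and 7.35 CPM in KO1, KO2 and KO3, a log2 difference of -7.99 (SE 0.77, edgeR adjusted p 1.65e-05). The near-identical fetal genes HBG1 and HBG2, which can share reads, summed to 10292.5, 4664 and 10049 CPM in WT and 2716, 1501 and 1907 CPM in KO. The groups did not overlap, and the KO mean was 4.08-fold lower (2-sided exact permutation p 0.1). HBE1, HBG1 and HBG2 lie in the first 10 Mb of chromosome 11, a window that was lower in KO. Its median log2 difference was -0.75, with 41 of 146 tested genes lower and 7 higher. Summed HBA1 and HBA2 were 1833, 637 and 1183 CPM in WT against 423, 287 and 189 CPM in KO, 4.07-fold lower (exact permutation p 0.1). HBA1 and HBA2 lost their calls without KO2, KO3 or WT1 (edgeR adjusted p up to 0.0889 for HBA1 and 0.0632 for HBA2), which left 3 called members. HBZ, the embryonic alpha-like chain, was at 716, 425 and 223 CPM in KO and 483, 201 and 246 CPM in WT, overlapping and not called (edgeR adjusted p 0.686).

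The red cell surface list went the other way for several members. Of 24 tested, 8 rose and 5 fell (54.2% called against 22.6% of all tested genes, median 0.43). GYPB, a red cell surface sialoglycoprotein whose reads can be shared with related genes, was at 185, 114 and 163 CPM in KO against 6.71, 18.4 and 14.9 CPM in WT (log2 difference 3.53, SE 0.35, edgeR adjusted p 1.89e-05). XK, a membrane protein that carries the Kx antigen, was at 109, 144 and 134 against 9.37, 15.4 and 21.4 CPM, and BCAM, the Lutheran antigen and a laminin receptor, at 24.9, 40.3 and 85.2 against 4.93, 10.5 and 11.3 CPM. These 3 rises did not overlap between genotypes. RHAG, the ammonium channel of the Rh complex, fell from 437, 424 and 476 to 181, 148 and 156 CPM (log2 difference -1.46, edgeR adjusted p 5.52e-04). ADD2, an adductin of the membrane skeleton, fell by 1.86, and AQP1, the water channel, fell by 2.84 on the log2 scale. Fewer members of the list fell without KO1, KO2 or WT3 (3 each).

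Of 9 tested enzymes of heme synthesis, 1 rose and 0 fell (11.1% called, against 22.6% of all tested genes), with 2 rises under the block or without WT3. The called enzyme was ALAS2, the erythroid enzyme of the first step, which was at 170.5, 164 and 207 CPM in KO and 13.4, 18.5 and 40.2 CPM in WT (log2 difference 2.91, edgeR adjusted p 1.16e-04). In treated cells ALAS2 differed by 0.59 (edgeR adjusted p 0.264), with every KO library still above every WT library. The change of this genotype effect with treatment was not called (edgeR adjusted p 0.244). Of 13 heme transport and degradation genes, 3 rose and 2 fell (38.5% called). BLVRB, a reductase of the biliverdin pathway, fell from 402, 493 and 416 to 116, 93.3 and 159 CPM and its relative BLVRA from 57.7, 68.5 and 49.6 to 11.9, 18.0 and 28.7 CPM. BLVRA lies on chromosome 7, and its difference of -1.58 became -0.80 relative to the chromosome median. LRP1, a scavenger receptor that takes up heme bound to hemopexin, rose from 1.14, 5.57 and 11.2 to 60.7, 138 and 147 CPM (edgeR adjusted p 0.00333). HMOX1, which degrades heme, had 0 to 3 counts in every untreated library. TFRC, the transferrin receptor, was at 2272, 1044 and 1054 CPM in KO and 806, 418 and 518 CPM in WT. It did not pass (edgeR adjusted p 0.0526), but did with the block (0.00436).

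**Figure D3:**
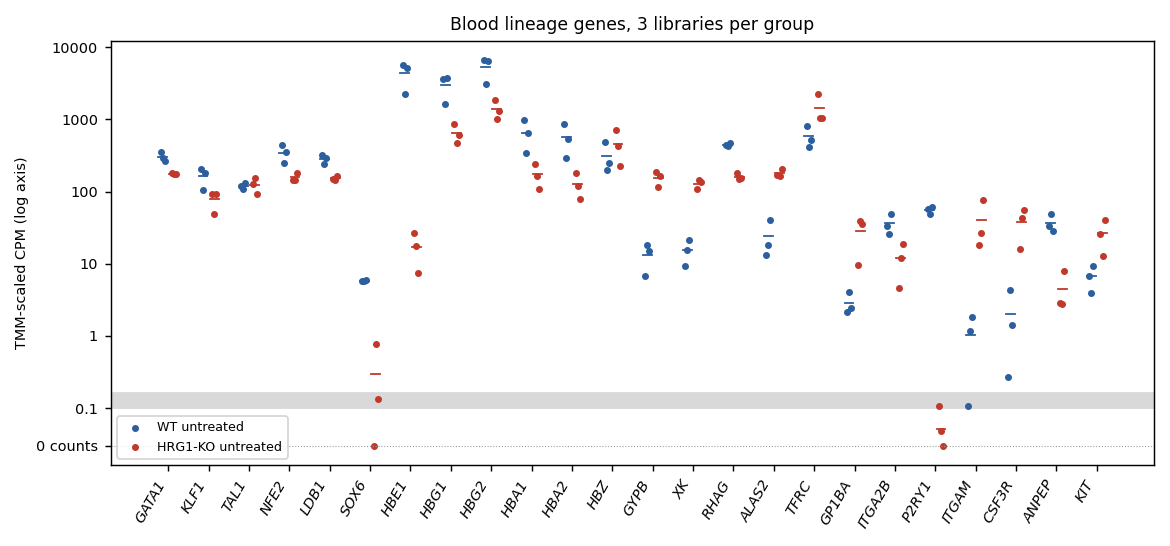
TMM-scaled CPM on a log axis for 24 blood lineage genes, a point per untreated library and a bar at the group mean (blue WT, red HRG1-KO). HBE1 falls from at least 2272 CPM in WT to at most 26.3 CPM in KO, whereas GYPB, XK and ALAS2 are higher in every KO library; the grey band is the range of 3 counts.

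Platelet and myeloid markers were also split. Of 14 tested megakaryocyte and platelet genes, 4 rose and 5 fell (64.3% called against 22.6% of all tested genes). Their median of -1.21 became -0.52 with the bound used for members that 1 genotype lacked. P2RY1, the platelet ADP receptor, was at 57.4, 48.3 and 61.5 CPM in WT and 0.107, 0.0475 and 0 CPM in KO, at least 414-fold lower. ITGA2B, the platelet integrin CD41, was at 4.55, 12.2 and 18.9 against 33.0, 26.2 and 49.5 CPM (edgeR adjusted p 0.0212), a call that was lost in 3 fits (0.0511 without KO1, 0.0663 without KO2 and 0.0878 without WT3). GP1BA, a chain of the von Willebrand factor receptor, was higher, at 9.74, 39.6 and 35.1 against 2.11, 4.04 and 2.42 CPM (edgeR adjusted p 6.68e-04). The falls of this list numbered 3 without KO2 or WT3. Of 15 granulocyte and monocyte genes, 3 rose and 5 fell (53.3% called, median -1.44, or -1.25 with bounds), and 3 and 2 fell without KO1 and KO2. With the block 5 rose. ITGAM, the integrin CD11b, was at 18.2, 26.6 and 77.4 CPM in KO and 0.108, 1.16 and 1.85 CPM in WT. CSF3R, the G-CSF receptor, was at 15.9, 42.7 and 55.8 against 0.271, 4.31 and 1.41 CPM, and CEBPA, a granulocyte transcription factor, at 7.49, 7.32 and 8.93 against 0.487, 1.81 and 1.28 CPM. All 3 rose without overlap. ANPEP, the peptidase CD13, fell from 33.2, 48.4 and 28.5 to 2.84, 2.76 and 7.82 CPM, and CD33 fell from 30.4, 51.7 and 33.6 to 6.79, 12.9 and 19.1 CPM. In treated cells ANPEP differed by 0.19 (edgeR adjusted p 0.786). The change of this genotype effect with treatment was not called (edgeR adjusted p 0.182).

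KIT, the stem cell factor receptor, was at 25.7, 12.9 and 40.4 CPM in KO and 6.71, 3.94 and 9.44 CPM in WT (log2 difference 1.97, edgeR adjusted p 0.00494), while CD34 stayed at 4 counts or fewer in each library. Single markers of other blood lineages differed as well. CD7, of T and NK cells, was at 9.84, 7.51 and 27.5 against 0, 0 and 0.538 CPM, CD3D at 0, 0.0475 and 0.0669 against 11.5, 6.45 and 15.5 CPM, and MS4A2, a chain of the IgE receptor of mast cells, at 7.22, 7.80 and 11.3 against 0.271, 0 and 0.235 CPM. MS4A2, at 60088259 to 60098467 on chromosome 11, lies close to MS4A3, at 60056665 to 60071115, and both rose. They may therefore not be separate signs of lineage, and whether their position bears on the rises was not tested. ENPP3, a basophil marker, was at 53.6, 36.1 and 38.5 CPM in WT and 0.0535, 0 and 0.0669 CPM in KO, at least 318-fold lower. Among non-blood markers, 4 of 10 fibroblast, 3 of 10 epithelial and 4 of 10 endothelial genes were at 0 in all 6 libraries, among them PDGFRA, LUM, KRT5, CDH5 and KDR. The epithelial list summed to 323 to 416 CPM in KO and 448 to 566 CPM in WT, and 4 of its 10 markers had a mean over 10 CPM. The fibroblast markers summed to 2.84 to 5.25 CPM in KO and 2.92 to 5.24 CPM in WT. The endothelial markers summed to 58.4 to 165.6 CPM in KO and 8.49 to 14.3 CPM in WT, with ESAM the member over 10 CPM, and the 18 markers of T, B and NK cells summed to 14.3 to 34.9 and 16.7 to 25.5 CPM. ESAM was at 57.1, 164 and 142 CPM in KO and 0.162, 0.278 and 1.04 CPM in WT. PECAM1, of the same list, fell from 8.45, 6.82 and 11.6 to 0, 0.856 and 1.44 CPM (log2 difference -3.50, edgeR adjusted p 0.00704). Of 4 tested endothelial genes, 1 rose and 1 fell (50% called against 22.6% of all tested genes, median -0.72).

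Genes listed under focal adhesion and actin linkage were more often lower than higher in KO. The list also holds caveola genes, annexins and small calcium sensors that are not themselves links to actin. Its members were chosen with earlier results of these data known, so its share is a description only. Of 32 tested members, 17 fell and 3 rose (62.5% called against 22.6% of all tested genes, median -1.20). In the fits that left out 1 library, 13 to 15 fell. With the block 5 rose and 20 fell. Without the members on the 9 shifted chromosomes, 10 of 19 fell and 0 rose, with a median of -1.17. ANXA1, a calcium-dependent membrane binder, fell from 515, 801 and 463 CPM in WT to 1.02, 1.90 and 1.30 CPM in KO (log2 difference -8.71, SE 0.53, edgeR adjusted p 8.02e-07). The caveola protein CAV2, on chromosome 7, was at 77.9, 60.5 and 98.7 CPM in WT and had no count in KO. S100A6, a calcium sensor of migrating cells, was at 27.1, 9.65 and 23.9 CPM in WT and at 0 in KO (at least 150.3-fold lower). TES, an actin-linked scaffold on chromosome 7, fell from 26.4, 87.8 and 32.8 to 0.267, 0.475 and 0 CPM. FLNA, the actin crosslinker filamin A, was picked after its values were seen: it was at 687, 601 and 1037 CPM in WT and 67.8, 91.6 and 138 CPM in KO (edgeR adjusted p 3.11e-04). The 3 rises were FERMT2, kindlin 2, which helps activate integrins (41.8, 72.9 and 49.7 against 0, 1.16 and 0.134 CPM), TLN2, a talin (9.36, 14.7 and 11.4 against 0.704, 1.21 and 0.235 CPM), and PARVB, a parvin (61.6, 64.5 and 83.0 against 36.4, 34.0 and 35.9 CPM). They lie on chromosomes 14, 15 and 22, and relative to the median of their own chromosome they were higher by 6.36, 4.30 and 0.69 on the log2 scale.

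Integrins themselves were divided, with 3 of 20 higher and 4 lower (35% called against 22.6% of all tested genes, median 0.01). ITGA5, of the fibronectin receptor, fell from 171, 173 and 149.5 to 34.0, 91.2 and 68.6 CPM (edgeR adjusted p 0.00833). Without WT3, 1 integrin rose and 1 fell, and without KO1 or KO2 2 fell. Of 15 cadherins and catenins, 3 rose (5 with the block) and 4 fell (46.7% called). FAT1, a giant protocadherin, was at 74.6, 39.1 and 59.5 CPM in WT and 0 in KO, while CDH18, a neuronal cadherin, was at 9.04, 13.4 and 10.3 against 0.704, 0.557 and 0.302 CPM. Of 26 immunoglobulin-fold and other adhesion molecules (34.6% called), 5 rose and 4 fell (2 without WT1 or WT3, and 7 with the block). NRCAM, a neuronal adhesion molecule, rose from 1.57, 2.37 and 2.55 to 17.0, 41.7 and 36.5 CPM although its chromosome 7 was lower as a whole. CD44, the hyaluronan receptor, was at 16.0, 16.0 and 42.2 CPM in WT and 0, 0.0951 and 0.167 CPM in KO. Of 23 tetraspanins, 5 fell and 2 rose (30.4% called), and 3 fell without KO1, KO2 or WT3. The rises numbered 1 without KO1 or WT1, 0 without KO2 or WT2, and 4 with the block. CD53, a leukocyte tetraspanin, fell from 138, 159 and 138 to 1.07, 2.95 and 7.09 CPM.

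Matrix genes changed in both directions. Of 23 tested collagens, 8 rose and 5 fell (56.5% called against 22.6% of all tested genes, median 0.24). Rises numbered 5 without KO3, WT1 or WT2, and falls 2 without KO2 and 3 without WT2 or WT3. With the block 8 rose and 7 fell. Besides COL2A1, COL25A1, a membrane collagen, rose from 0.0541, 0.325 and 0.571 to 24.3, 29.6 and 31.1 CPM and COL9A2, a cartilage collagen, from 0.812, 0.881 and 1.75 to 3.96, 7.23 and 14.4 CPM. COL6A3 was at 5.58, 52.0 and 20.3 CPM in WT and 0, 0 and 0.100 CPM in KO, at least 193-fold lower. Of 16 other matrix genes, 3 rose and 2 fell (31.25% called, median -0.14), with 6 falls under the block and 1 without KO2 or WT3. LAMB1, the beta 1 chain of laminin, was at 794, 999 and 943 CPM in KO1, KO2 and KO3 and 28.4, 67.0 and 58.4 CPM in WT1, WT2 and WT3 (log2 difference 4.15, SE 0.49, edgeR adjusted p 7.81e-05). LAMB1 also lies on chromosome 7, at 107923799 to 108003161, close to NRCAM at 108147649 to 108456720. Whether this position bears on the rises was not tested. SPARC, a collagen-binding matrix protein, was at 138, 168 and 235 against 10.0, 10.4 and 13.2 CPM (edgeR adjusted p 9.48e-07). Both LAMB1 and SPARC were called higher in treated cells too.

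**Figure D4:**
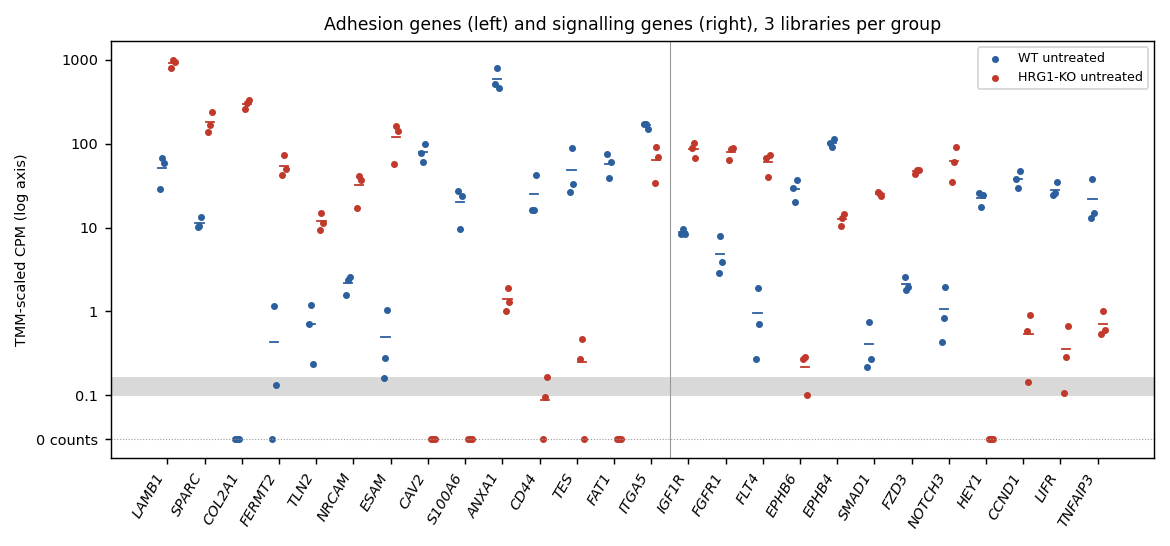
TMM-scaled CPM on a log axis for 14 adhesion genes (left of the line) and 12 signalling genes (right), a point per untreated library and a bar at the group mean (blue WT, red HRG1-KO). LAMB1, SPARC, COL2A1, FERMT2, IGF1R, FGFR1, FZD3 and NOTCH3 are higher in every KO library, and CAV2, S100A6, ANXA1, CD44, FAT1, EPHB6, HEY1 and LIFR lower; the grey band is the range of 3 counts.

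Glycolysis held few called genes. Of 24 tested genes of glucose transport and glycolysis, 0 rose and 1 fell (4.17% called; median -0.03), with 5 falls and 1 rise under the block. The gene that fell was PFKP, the platelet-type phosphofructokinase, at 36.1, 60.6 and 65.7 against 116, 116 and 114 CPM, and its call was lost in 4 fits (0.0863 without KO1, 0.0523 without WT1, 0.0546 without WT2 and 0.0540 without WT3). Of 27 TCA cycle genes, 3 rose and 5 fell (29.6% called against 22.6% of all tested genes). The rises numbered 5 without WT1 and the falls 3 without KO3. With the block 5 rose and 8 fell. All 3 rises lie on chromosomes 3, 13 and 14: SUCLG2 at 75.6, 79.5 and 78.0 against 23.2, 25.6 and 19.9 CPM and SUCLA2 at 124, 93.6 and 84.5 against 34.2, 33.4 and 25.6 CPM, both subunits of succinyl-CoA ligase, and DLST, of the oxoglutarate dehydrogenase complex, at 163, 171 and 123 against 71.3, 70.2 and 71.1 CPM. Relative to the median of their chromosome they differed by 1.31, 0.77 and 0.48 on the log2 scale. MDH2 and OGDH, on chromosome 7, fell by 0.94 and 0.86 on the log2 scale, and relative to the chromosome median their difference was -0.16 and -0.08. On the chromosomes other than the 9 shifted ones 14 members were tested, of which 0 rose and 1 fell.

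Of 18 aldehyde dehydrogenase and retinoid genes, 6 fell and 1 rose (38.9% called against 22.6% of all tested genes, median -0.58). Besides ALDH1A2, DHRS3, which returns retinaldehyde to retinol, fell from 68.6, 46.5 and 71.7 to 4.76, 6.23 and 12.2 CPM, and STRA6, the retinol uptake receptor, was at least 24.9-fold lower (5.04, 2.32 and 2.69 CPM in WT). ALDH4A1, of proline breakdown, fell from 65.7, 47.5 and 43.7 to 13.9, 9.18 and 10.5 CPM, and ALDH5A1, of GABA breakdown, rose from 10.9, 11.7 and 14.1 to 57.3, 65.6 and 64.2 CPM. Without KO1, and also with the block, 2 of the list rose. Of 32 glutathione and antioxidant genes, 10 fell and 4 rose (43.8% called; median -0.31). CAT, catalase, was at 32.2, 30.2 and 36.4 CPM in KO and 134, 114 and 113 CPM in WT (log2 difference -1.87, SE 0.18, edgeR adjusted p 1.44e-05). GSR, glutathione reductase, was at 65.2, 78.5 and 70.6 against 162, 178 and 178 CPM. GCLC, of the first step of glutathione synthesis, went from 17.4, 17.9 and 17.2 up to 42.6, 37.6 and 31.8 CPM, and MGST1, a microsomal glutathione transferase, from 27.5, 20.2 and 18.5 up to 81.0, 61.3 and 70.5 CPM. The falls numbered 6 without KO2 or WT1, and the rises 2 without KO1, WT2 or WT3.

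Cholesterol genes were called at about the share of all genes, with 3 of 25 higher and 3 lower (24.0% against 22.6%). SREBF2, the regulator of the pathway, rose from 208, 274 and 293 to 483, 614 and 534 CPM, while INSIG1, which restrains it, fell from 625, 221 and 412 to 169, 67.6 and 102 CPM (edgeR adjusted p 0.00220 and 0.00424). Without KO1, KO2, WT2 or WT3, 1 rose, and without WT1 1 fell. With the block 5 fell. Of 29 fatty acid genes, 4 fell and 1 rose (17.2% called, below the 22.6% of all tested genes). Without KO1 0 fell and without WT3 2 fell, the rise was lost without KO1, KO2, KO3 or WT1, and with the block 4 rose and 6 fell. Of 17 genes of serine, one-carbon and asparagine synthesis, 2 fell and 0 rose (11.8% called), and 2 rose without WT2 and 1 with the block. ALDH1L1, a cytosolic folate enzyme, was at 3.14, 13.5 and 6.99 CPM in WT and 0 in KO. The 16 tested ATF4 and CHOP stress genes held 1 rise (2 with the block) and 0 falls (6.25% called). The 25 proliferation genes held 0 rises and 1 fall (4% called). That fall was CDKN1A, the cell cycle inhibitor p21, at 1.44, 2.52 and 3.38 against 14.3, 31.4 and 21.9 CPM (edgeR adjusted p 0.00228). Without KO1, 3 proliferation genes fell, and with the block 1 rose and 3 fell.

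Signalling genes changed in both directions. Of 30 tested receptor tyrosine kinases, 7 rose and 4 fell (36.7% called; median 0.20), with 12 rises under the block and 2 falls without KO1 or WT2. IGF1R, the insulin-like growth factor receptor, was at 88.0, 102 and 68.0 CPM in KO and 8.34, 9.60 and 8.47 CPM in WT (log2 difference 3.29, SE 0.23, edgeR adjusted p 1.93e-06). FGFR1 was at 63.6, 87.2 and 88.4 against 2.87, 7.84 and 3.90 CPM and FLT4, a receptor for lymphatic growth factors, at 66.6, 39.6 and 73.8 against 0.271, 1.90 and 0.706 CPM. The ephrin receptors EPHB6 and EPHB4 fell, EPHB6 by 7.10 on the log2 scale and EPHB4 at 10.5, 13.0 and 14.5 against 101, 92.0 and 114 CPM, and both lie on chromosome 7. Of 33 MAPK targets and feedback genes, 5 rose and 5 fell (30.3% called against 22.6% of all tested genes, median -0.20). With the block 8 fell. SPRY1, an inhibitor of receptor kinase signals, rose from 0.596, 1.21 and 2.08 to 9.36, 13.1 and 14.5 CPM, and CCND1, cyclin D1, fell from 37.8, 29.8 and 46.5 to 0.588, 0.143 and 0.903 CPM. The counts moved in single fits: 2 rose without KO2 or WT1 and 3 without KO3, and 2 fell without KO1 or WT3, 1 without KO2 and 3 without WT2.

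More TGF-beta and WNT genes rose than fell. Of 37 TGF-beta and BMP genes, 9 rose and 4 fell (35.1% called against 22.6% of all tested genes, median 0.43). Without WT1 or WT3, 5 of them rose. SMAD1, which relays BMP signals, was at 26.3, 25.1 and 23.7 CPM in KO and 0.217, 0.742 and 0.269 CPM in WT. TGFBR3, a co-receptor, rose from 18.5, 25.8 and 27.0 to 57.6, 76.3 and 64.1 CPM and ACVR2A, an activin receptor, from 2.00, 2.60 and 2.49 to 11.2, 8.13 and 7.05 CPM, whereas ID2, a BMP target, fell from 14.9, 22.0 and 32.0 to 1.98, 1.57 and 4.25 CPM. Of 38 WNT genes, 11 rose and 3 fell (36.8% called), with a median of 0.71, or 0.42 with such bounds. FZD3, a WNT receptor, was at 43.4, 48.6 and 48.5 CPM in KO and 2.54, 1.81 and 1.95 CPM in WT (log2 difference 4.48, SE 0.22, edgeR adjusted p 3.48e-07). LGR4, the R-spondin receptor, rose from 19.9, 21.6 and 35.8 to 109, 83.6 and 82.8 CPM, and LEF1, a transcription factor of the pathway, from 23.0, 28.3 and 23.4 to 62.4, 68.9 and 53.1 CPM. WNT rises numbered 6 without KO2 or WT3 and 7 without WT1, and falls 0 without KO1 and 1 without KO2, KO3, WT2 or WT3.

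In the Notch list, 3 of 26 rose and 5 fell (30.8% called against 22.6% of all tested genes). Its median was -0.20, or -0.40 with bounds, and 9 fell with the block. NOTCH3, a receptor, was at 34.6, 60.9 and 91.0 CPM in KO against 0.433, 0.835 and 1.95 CPM in WT. HEY1, a direct Notch target, was at 25.9, 17.4 and 24.7 CPM in WT and 0 in KO (at least 169-fold lower). MAML3, a coactivator, rose from 4.60, 6.12 and 5.55 to 22.1, 37.0 and 27.5 CPM. The falls numbered 3 without KO1 or WT1 and 2 without KO2. Of 45 genes of cytokine receptors, JAK and STAT, 8 rose and 6 fell (31.1% called, median -0.43). There were 11 falls under the block and 5 rises without KO3, WT2 or WT3. SOCS2, a feedback inhibitor, rose from 119, 176 and 88.7 to 298, 363 and 286 CPM, and IL1R1 from 3.03, 8.07 and 8.03 to 25.3, 35.6 and 38.3 CPM. LIFR, the leukaemia inhibitory factor receptor, fell from 24.6, 25.5 and 34.6 to 0.107, 0.285 and 0.669 CPM. STAT5A, which relays erythropoietin signals, was at 259.6, 307 and 256 against 766, 712 and 815 CPM (edgeR adjusted p 0.0391), without overlap but with the call lost in each of the 6 fits that left out 1 library (0.110 without KO1, 0.0832 without KO2, 0.0974 without KO3, 0.0797 without WT1, 0.0733 without WT2 and 0.0905 without WT3).

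More interferon and antigen presentation genes rose than fell, and the reverse held for NF-kB targets. Of 27 interferon-stimulated and antigen presentation genes, 8 rose and 2 fell (37.0% called against 22.6% of all tested genes, median 0.29). Falls numbered 4 without KO3, 1 without KO2 or WT3, and 5 under the block. HLA-B was at 2.94, 2.76 and 12.3 CPM in KO and 0, 0 and 0.504 CPM in WT, and HLA-C at 30.6, 48.0 and 105 CPM against 0. These class I genes, which show peptides to T cells and which K562 is known to lack, resemble each other and can share reads. KO3 was the highest library for both. IFIH1, a sensor of double-stranded RNA, rose from 0, 0.0464 and 0.269 to 4.39, 5.80 and 8.76 CPM. Of 23 NF-kB and chemokine genes, 7 fell and 1 rose (34.8% called; median -0.66), with 2 rises under the block. TNFAIP3, a feedback inhibitor, fell from 12.9, 37.7 and 14.9 to 0.535, 0.998 and 0.602 CPM, and the chemokine CXCL3 was at least 30.2-fold lower, at 3.79, 4.50 and 3.90 CPM in WT and 0, 0 and 0.100 CPM in KO. LTB, lymphotoxin beta, rose from 3.19, 7.42 and 6.18 to 20.5, 13.4 and 16.8 CPM.

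**Figure D5:**
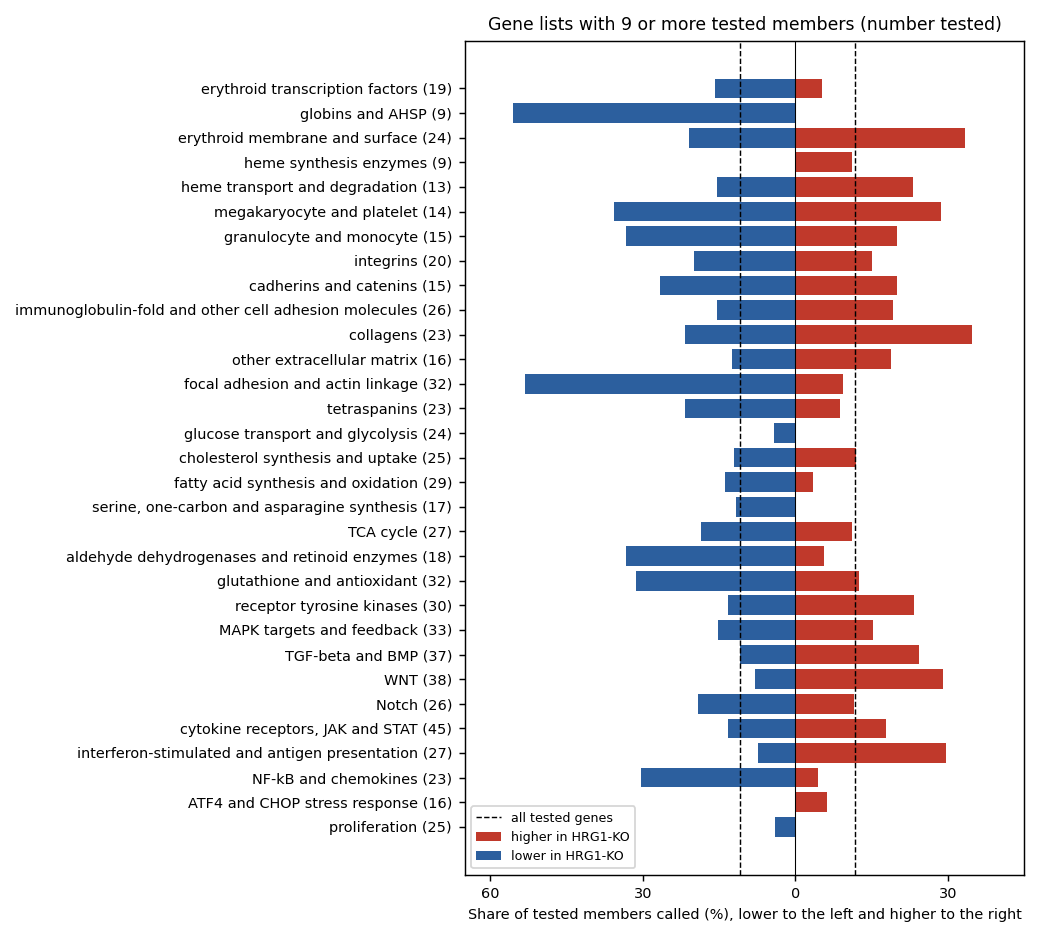
Share of the tested members of each list called lower (blue, to the left) or higher (red, to the right) in HRG1-KO, for lists with 9 or more tested members, whose number stands in brackets. Dashed lines mark the shares over all tested genes, 10.9% lower and 11.7% higher; focal adhesion and actin linkage and the globins reach furthest to the left, and glycolysis, the ATF4 list and proliferation have the shortest bars.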

How the data were processed

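The deposited table held raw counts per gene symbol for 12 libraries, which the authors made from RNA-seq reads. FastQC 0.12.1, STAR 2.7.11b and build hg38 are named per the submitters' processing notes. The counting tool, annotation and strand setting are not given in the sources used here. Of 28278 genes, 15805 passed edgeR's filterByExpr (minimum count 10). Counts were scaled by TMM and fitted by edgeR 4.0.16 (quasi-likelihood, limma 3.58.1, R 4.3.3) over all 4 groups without a block, and the contrast was untreated HRG1-KO minus untreated WT with Benjamini-Hochberg adjustment at 0.05. The script was tested on simulated counts. Folds against libraries at 3 counts or fewer are bounds against 3 counts per library, and these cover counting error only. The biological coefficient of variation was 0.384. Positions and promoters came from the RefSeq table of GRCh38.p14. Exact permutation tests used scipy 1.17.1.

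Deviations from the group means correlated at 0.361, 0.210 and 0.280 for KO and WT libraries with the same replicate number and at -0.288 to 0.0692 for different numbers, so the numbers were taken to pair the samples, from the data and not from a label. Named genes were SLC48A1; the 12 largest rises and 12 largest falls without overlap whose higher genotype had 50 counts or more in each library; the 8 largest each way with a mean of at least 100.0 CPM; up to 4 called genes each way per list under the same 50-count minimum; and 21 erythroid and progenitor genes always named. Members and lists were chosen with earlier results of these data known. The 38 lists held 983 genes, of which 738 were tested; mitochondrially encoded subunits were not analysed here, and 4 named genes are not reported here. Alternatives were DESeq2 1.42.0, other scalings and filters, the 6 untreated libraries alone, a replicate block, a test against 1.5-fold, leaving out each library, and list values without shifted chromosomes or relative to the chromosome median.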

Additional observations from a re-analysis of the deposited data

How the results depend on the processing

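The count of 3574 genes was 2334 with at least 10 counts required in every library (1163 higher) and 2057 when tested against a 1.5-fold change (1043 higher, 1014 lower). It ran from 2485 to 2844 in the fits that left out 1 untreated library, with 1262 to 1477 higher and 1177 to 1434 lower. With the replicate block it was 5217 (2670 higher, 2547 lower), and DESeq2 called 4504. SLC48A1 differed by -3.66 with the replicate block and by -3.96 to -3.31 with 1 library left out. TAL1, which was not called, had a difference of -0.00717 with the replicate block, and of -0.16 (without KO2) to 0.19 (without KO3) with 1 library left out, with -0.011 without WT2. The block added calls for GATA1, KLF1, RUNX1 and TFRC and removed 0 calls among the 201 named genes. Of the 189 called named genes, 144 passed in every fit with 1 library left out, and 146 passed against 1.5-fold. The cause of these changes was not tested, apart from the fewer genes or samples that the stricter filter and the left-out libraries use. Leaving out the 2 treated libraries numbered 1, an alternative chosen after seeing the data, gave 5039 calls. With 3 libraries a group no single-gene permutation test can go below 0.1, and at 3 counts or fewer absence and low expression were not distinguishable at this depth.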

Other observations

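Zinc finger genes, whose list (symbols ZNF followed by a number) was chosen after seeing the data, were more often higher than lower in KO. Of 399 tested, 89 rose (22.3%) and 28 fell (7.02%), with a median log2 difference of 0.28. Over all tested genes 11.7% rose and 10.9% fell. On chromosome 19, where many of these DNA-binding repressors lie in clusters, 57 of 193 rose (29.5%) and 7 fell (3.63%), with a median of 0.56. Of these 193 genes, 23 were at 3 counts or fewer in all WT libraries and above this in at least 1 KO library, and 3 were the reverse. The other 981 tested genes of chromosome 19 held 59 rises and 100 falls. Over all 1174 tested genes of that chromosome, zinc finger genes included, 9.88% rose and 9.11% fell.

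Genes at the detection limit in 1 genotype also lay next to each other, which was likewise looked for after seeing the data. Runs of at least 3 neighbouring tested genes numbered 14 for KO, with 49 genes, and 14 for WT, with 46 genes. The longest run at the limit in KO held 6 genes on chromosome 11, from OR51B4 to OR52D1, an olfactory receptor region beside the beta-globin cluster. A run of 4 on chromosome 17 held the keratins KRT12, KRT13, KRT15 and KRT19. The longest run at the limit in WT was 6 genes on chromosome 19, among them ZNF257, ZNF98, ZNF492, ZNF730 and ZNF724. A run of 4 on chromosome 11 held ANO3, MUC15, SLC5A12 and BBOX1.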
